A study of Mus musculus with 6 samples.

Results

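The features described here are exon probe sets whose signal was higher, relative to the rest of their gene, after lowering Celf1 (named Cugbp1 in the labels) in cultured mouse cortical neurons. They were chosen by measured values. A probe set is a small group of probes that usually falls within a single exon and receives 1 log2 expression value per array. For each array an index was formed as the probe set minus the median of its gene's probe sets. A probe set was a member where the index was at least 0.5 higher in the knockdown array than in the control array in all 3 same-numbered pairs, and at least 1 higher on average, on the log2 scale. Of 1195555 probe sets on the array, 317245 were annotated to a single gene, and 237113 of these in 14314 genes were eligible. Eligible means a mean over the 6 arrays at or above the median of all probe sets (5.73, log2) in a gene with 5 or more such probe sets. The rule kept 220 probe sets in 151 genes, and 4 probe sets of Celf1 that also met it were left out because the shRNA targets that gene.

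The cells were primary cortical neurons of C57BL/6 mouse embryos at embryonic day 15, cultured without meninges and exposed on day 2 to AraC, which removes dividing cells. On day 5 they received, for 4 hours, lentivirus with a control shRNA (3 arrays) or with an shRNA against mouse Cugbp1 (3 arrays), and RNA was taken on day 11, after 6 further days. A single shRNA was named per group, so its other effects cannot be told apart from those of lowering Celf1. The treatment text of replicates 2 and 3 in both groups names Tdp-43, the design text names motor neurons, and nothing states whether the arrays came from separate cultures, so spread between arrays may be technical.

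Celf1 is an RNA-binding protein that binds GU-rich sequence in pre-mRNA, where it shapes alternative splicing, and in 3' untranslated regions, where it affects decay and translation. In neurons, alternative exons, alternative starts and alternative ends set which form of a channel, receptor or adhesion molecule is made. On an exon array such a choice appears as a probe set that moves apart from the others of its gene. The index also differs when the rest of the gene changes and 1 probe set does not follow, so the probe set and its gene are given separately below. Probe set positions were not used here, so no member is placed in an exon, an intron or an untranslated region.

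The median of the eligible Celf1 probe sets was 11.00, 10.86 and 10.72 in control replicates 1, 2 and 3 and 9.71, 9.76 and 9.51 in knockdown replicates 1, 2 and 3, so the groups did not overlap. Array medians over all probe sets lay between 5.74 and 5.78. The 15 pan-neuronal markers had a mean log2 level of 11.68 to 11.83 in control and 11.63 to 11.71 in knockdown arrays. Single markers differed more, and 2 of the 15 were higher in knockdown. Stx1a was higher, with means of 9.81 in control and 10.78 in knockdown arrays. Ina (12.94 and 12.32) and Dcx (12.51 and 12.01) were lower, and none of these 3 overlapped between groups. The 12 astrocyte markers lay at 9.53 to 9.82 in control and 9.36 to 9.72 in knockdown arrays. The 9 oligodendrocyte-lineage markers lay at 9.04 to 9.42 and 9.15 to 9.34. The 9 fibroblast and meninges markers lay at 8.04 to 8.13 and 7.91 to 8.06. Ntsr2 of the astrocyte list was lower in knockdown (8.95 and 7.92), while 4 of those 12 were higher. Pdgfrb of the endothelial and mural list was lower too (8.49 and 7.56), while 4 of those 9 were higher. Of the microglial markers 7 of 9, and of the endothelial and mural markers 8 of 9, lay under 6.89. That value is the 95th percentile of 3846 probe sets of olfactory and vomeronasal receptor genes, used as a gauge of signal in genes not expected in these cells, and is called the receptor-gene level. None of the 220 members belonged to a gene of these marker lists. In bulk RNA, fewer cells of a type and less RNA per cell cannot be told apart.

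The index of the members combined a higher probe set and a lower gene in different shares. The median member had an index 1.16 higher in knockdown than control arrays (range 1.00 to 1.91), against 0.0050 over all eligible probe sets. These index values chose the members and are given as a description. The median difference of the probe set itself was 0.46, and that of the gene median was -0.76. Over all eligible probe sets the same medians were -0.0025 and -0.012.

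The members were split by these components, at 0.5 on the log2 scale. In 120 members (54.5%, 76 genes) the gene median was lower by at least 0.5 while the probe set was less than 0.5 higher. There the median differences were 0.19 for the probe set and -0.99 for the gene. In 67 members (30.5%, 62 genes) the probe set was at least 0.5 higher while its gene was less than 0.5 lower, with medians of 1.01 and -0.16. Both held in 33 members (15%, 19 genes), with medians of 0.61 and -0.59. The probe set's own signal was higher in all 3 pairs in 151 members, and in 57148 of all 237113 eligible probe sets. On average it was at least 0.5 higher in 100 members. It was at least 1 higher in 36 (576 of all eligible) and below its control mean in 21 (119544 of all eligible). The gene median was lower by at least 1 in 54 (708 of all eligible). The rule itself favours a higher probe set or a lower gene, so these counts only describe the members.

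**Figure D1:**
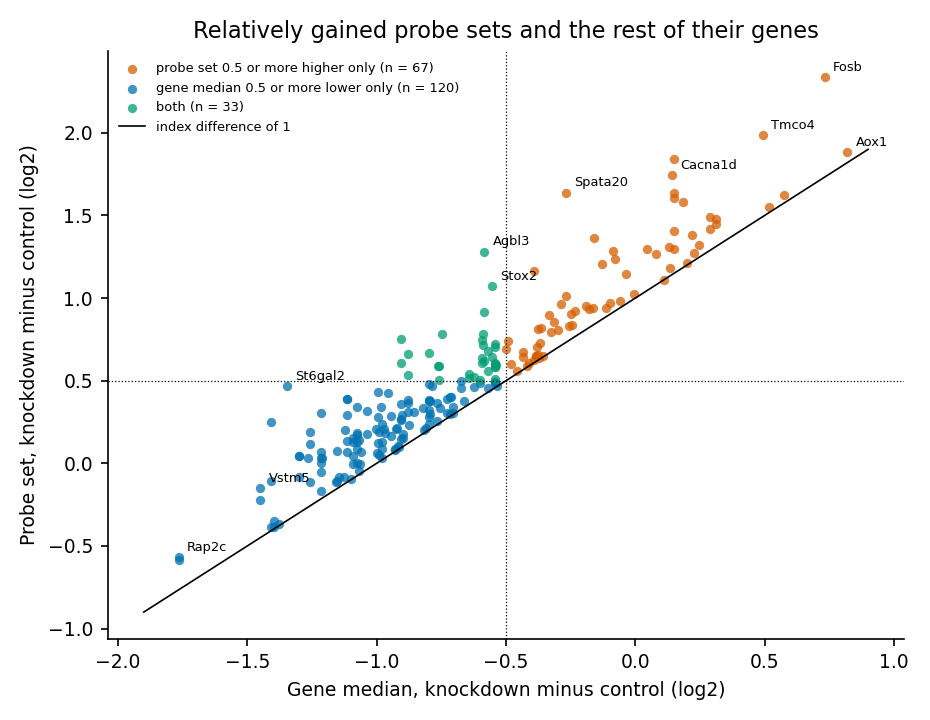
Each point is 1 of the 220 members. The horizontal axis is the knockdown minus control difference of its gene's median and the vertical axis that of the probe set itself (log2, means of 3 pairs), with colours for the 3 classes of 120, 67 and 33 members. The line marks an index difference of 1, so the rule itself keeps every point near or above it, and most points lie left of -0.5 on the gene axis.

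The index of 159 members did not overlap between the groups, being higher in every knockdown array, where 4.72% of all eligible probe sets showed this. The own signal of 57 members did not overlap, where 8.25% of all eligible probe sets showed it. By the class limits of 0.5, 38 of those 57 had only the probe set past the limit, 8 only the gene, and 11 both. The 8 were thus higher themselves, by less than 0.5. In limma's diffSplice test of exon usage, 63 members had an adjusted p under 0.05 with a higher value in knockdown, and 0.0464% of all eligible probe sets did (110 of 237113). With the replicate number as a block the test called 212 members and 1.26% of all eligible probe sets (2980). The rule used this contrast, so these counts describe the members and support nothing. The count of 110 moved with single arrays: it was 714 without control replicate 1, 22 without control replicate 2 and 181 without control replicate 3. It was 41 without knockdown replicate 2 and 58 without knockdown replicate 3. Limma was also run on the index of each probe set with its own variance, as a setting separate from the replicate block. There 0 were called, the smallest adjusted p was 0.865, and 5646 were higher at an unadjusted p under 0.05. The index was not tested with the block, so the 0 calls cannot be put down to the variance alone.

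Members were mostly the dim probe sets of their genes. In control arrays the median index of the members was -2.85 on the log2 scale, and in knockdown arrays it was -1.67. The index in control arrays was under -2 in 152 members (69.1%), against 8.16% of all eligible probe sets. It was above 0 in 27 members (12.3%), against 49.4%. By control level the median member stood at the 11.6th percentile of its gene's probe sets, against 53.1 over all eligible probe sets. Brightness also depends on how well the probes bind, so a low index is no measure of how often an exon was included.

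The mirrored rule, with each limit turned in sign, kept 146 probe sets in 133 genes that were relatively lost in the knockdown. Their median index was -1.17 in control arrays and -2.40 in knockdown arrays, and 40 of them (27.4%) lay under -2 in control. By the choice itself, control is the lower group for the gained set and the higher group for the lost set. The lower medians were thus -2.85 (gained) and -2.40 (lost), and the higher ones -1.67 and -1.17. The own signal of the lost probe sets differed by a median of -1.18 and their gene median by -0.055. Most of that index difference therefore lay in the probe set, unlike in the gained set. Both sets were chosen by the same contrast, and the difference between them was not tested.

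**Figure D2:**
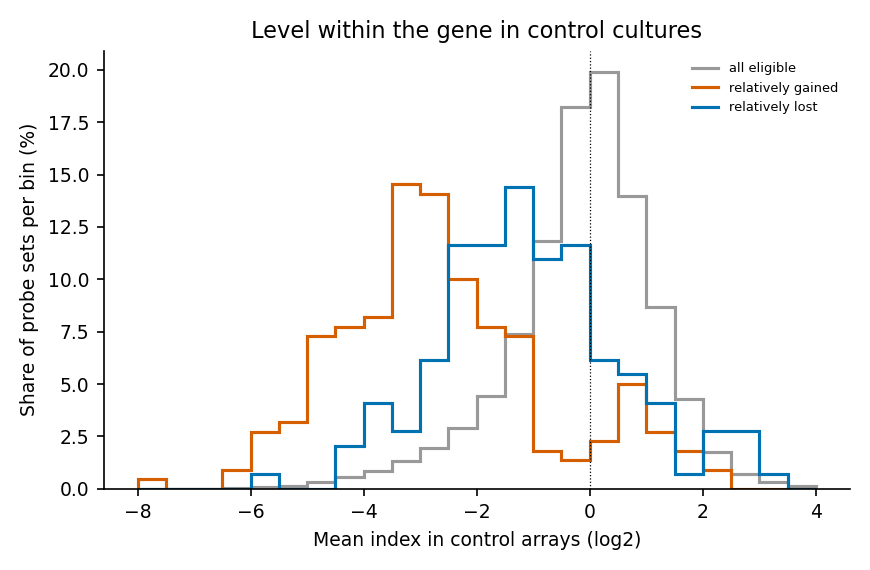
The share of probe sets (%) is shown by their mean index in control arrays (log2, in bins of 0.5) for all 237113 eligible probe sets, the 220 gained and the 146 lost. The gained set has its highest bin between -3.5 and -3, with 14.5% of members, and the eligible probe sets have theirs between 0 and 0.5, with 19.9%.

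In genes with a lower median, the dimmer probe sets differed less from control in general, which was looked at after the members had been described. In 727 genes the median was lower by at least 0.5, and these genes held 153 of the 220 members. Their 5541 eligible probe sets with a control index above 0 had a median own difference of -0.60. It was -0.65 for 3100 probe sets with a control index between -1 and 0, -0.52 for 1365 between -2 and -1, -0.30 for 854 between -4 and -2, and -0.02 for 157 under -4. Members made up 0.415%, 0.129%, 1.39%, 8.78% and 20.4% of these 5 groups, so the share was lowest between -1 and 0. In 316 genes whose median was higher by at least 0.5, the median index difference was instead negative for dim probe sets, at -0.20 for 339 probe sets between -4 and -2 and -0.11 for 18 under -4. Their median own differences were 0.44 and 0.52, against 0.59 for 2412 above 0, so these dim probe sets were mostly higher with their genes. In 5043 genes whose median differed by at most 0.1, the median index difference was 0.033 for 5874 probe sets between -4 and -2. For the 1085 under -4 in those nearly level genes it was 0.13, with 64.7% above 0 and a median own difference of 0.13. The dimmest probe sets were thus slightly higher there too. However, the control signal both forms these groups and enters the difference, and the level limit includes the knockdown arrays. Both favour a higher knockdown value in the dimmest groups, so the sign there was partly set by the grouping. What part the low signal has in the members' index was not tested.

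Many members lay within the upper range of the receptor genes' signal. The receptor-gene probe sets had a median of 3.68, and the rule's own limit of 5.73 keeps every member above that. The limit is on the mean over 6 arrays, so a probe set with a lower control mean can pass through its knockdown arrays. Among the 15 leading members, those of Spata20, Ssbp2 and Rpgrip1l and Cdc42bpg 4687226 did so, with control means of 4.98, 5.24, 5.49 and 5.61. Members outside those 15 did so too, such as those of Sema6a (5.43) and Asph (5.52). The mean over 6 arrays of 101 members (45.9%) was under the receptor genes' 95th percentile of 6.89. The same held for 15.1% of all eligible probe sets and 54.8% of the lost set. By class, at the limits of 0.5, this held for 45 of the 67 members with only the probe set past the limit, 41 of the 120 with only the gene past it, and 15 of the 33 with both. When only probe sets at or above that level were kept, a choice made after seeing the data, the rule gave 119 members and 40 of them were at least 0.5 higher themselves.

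Replicate 1 stood out in both groups. Control replicate 1 was the highest control array in 124 members (56.4%), and knockdown replicate 1 the highest knockdown array in 118 (53.6%), with both true in 102. Over all eligible probe sets these shares were 35.8% and 34.6%. Among eligible probe sets with a control index under -2 replicate 1 was the highest control in 9668 of 19351 and the highest knockdown in 9243. The pair difference compares replicate 1 with replicate 1, and the part of this pattern in the choice of members was not tested.

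The member with the largest index difference was probe set 4569117 of Spata20, at 1.91. Its signal was 5.56, 5.66 and 3.71 in control replicates 1, 2 and 3 and 6.60, 7.44 and 5.80 in knockdown replicates 1, 2 and 3. Every knockdown array was above every control array, control replicate 3 was the lowest, and most values lay under 6.89. The gene median over 11 probe sets differed by -0.27 and the probe set by 1.64.

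Second was probe set 5564894 of Agbl3, which encodes a carboxypeptidase that trims glutamates from proteins such as tubulin. It was 5.34, 6.25 and 5.84 in control and 6.82, 7.28 and 7.18 in knockdown arrays, again without overlap, with an index difference of 1.87. The gene held 2 further members. Probe set 5205351 was brighter, at 7.20, 7.12 and 7.01 in control and 7.66, 8.43 and 7.98 in knockdown arrays. Probe set 4818662 overlapped between groups, with an own difference of 0.62. The gene median was lower by 0.58 in knockdown arrays.

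St6gal2, a sialyltransferase that caps N-glycans, came next, by way of its gene. Its gene median was 11.71, 11.91 and 11.64 in control and 10.41, 10.47 and 10.35 in knockdown arrays. Member 4920564 was 7.28, 6.07 and 6.14 in control and 7.43, 6.89 and 6.58 in knockdown arrays, which overlapped. The gene was lower in every knockdown array while the dim probe set overlapped between groups.

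Cacna1d, the pore-forming subunit of the L-type calcium channel CaV1.3, held a member that was higher in a gene that was nearly level. Its gene median over 62 eligible probe sets was 9.50, 9.53 and 9.06 in control and 9.60, 9.58 and 9.34 in knockdown arrays, so the groups overlapped. Member 5431105 was 7.86, 7.98 and 8.26 in control and 9.59, 9.96 and 9.78 in knockdown arrays. It was 1.74 ± 0.23 (SD, n = 3 pairs) higher, every knockdown array lay above every control array, and all 6 values were above the receptor-gene level. The other 61 eligible probe sets of the gene differed by -0.19 to 0.58, with a median of 0.08. Cacna1d transcripts are known for alternative exons that alter gating.

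Fosb and Fos, immediate early transcription factors induced by neuronal activity, each held a member while their genes were higher as a whole. Fosb member 4776559 was 5.76, 5.86 and 7.16 in control and 8.31, 8.85 and 8.63 in knockdown arrays. Its own difference of 2.33 was the largest of all members, and the median of the gene's 5 probe sets was 0.73 higher. Fos member 5143783 was 6.69, 7.09 and 7.22 in control and 8.42, 8.85 and 8.60 in knockdown arrays, and the median of 7 probe sets was 0.58 higher. Neither overlapped between groups. With 5 and 7 probe sets the gene median rests on few values, and the Fos member equalled the gene median in each control array.

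Cdc42bpg, a kinase bound by the GTPase Cdc42, held 5 of its 39 eligible probe sets as members, and none of this came from a lower gene. Member 4687226 was 6.35, 6.03 and 4.45 in control and 7.19, 8.03 and 7.14 in knockdown arrays. Member 5376251, the least different, was 6.43, 6.20 and 5.82 in control and 7.31, 7.54 and 7.49 in knockdown arrays. All 5 members were 1.29 to 1.84 higher with no overlap between groups, and all had a mean under the receptor-gene level. The gene median was 0.15 higher. The other 34 probe sets differed by -0.42 to 1.14.

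Ucp2, a carrier of the inner mitochondrial membrane, showed a bright probe set that stayed level in a lower gene. Its gene median was 8.06, 7.69 and 6.99 in control and 6.66, 6.05 and 5.82 in knockdown arrays. Member 4954778 was 8.29, 8.36 and 8.51 in control and 8.25, 8.60 and 9.06 in knockdown arrays, an own difference of 0.25 with overlapping groups. It was 0.80 above the gene median in control and is the only one of the 15 leading members above its gene there. The other Ucp2 members, 5552242 and 5031585, were dim and differed by -0.11 and -0.38.

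The remaining leading members were dim in their genes. Member 5550824 of Stox2 was 7.28, 6.87 and 6.39 in control and 7.68, 8.04 and 8.03 in knockdown arrays, without overlap. Member 5353421 of Rpgrip1l, a protein of the ciliary transition zone, was 5.74, 5.20 and 5.53 in control and 6.96, 6.56 and 6.43 in knockdown arrays, also without overlap. Member 4352367 of Ssbp2, which binds single-stranded DNA, was 6.96, 4.30 and 4.47 in control and 7.38, 6.47 and 5.96 in knockdown arrays. Replicate 1 was the highest Ssbp2 array in each group, the groups overlapped, and the mean index in control arrays was -7.66.

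**Figure D3:**
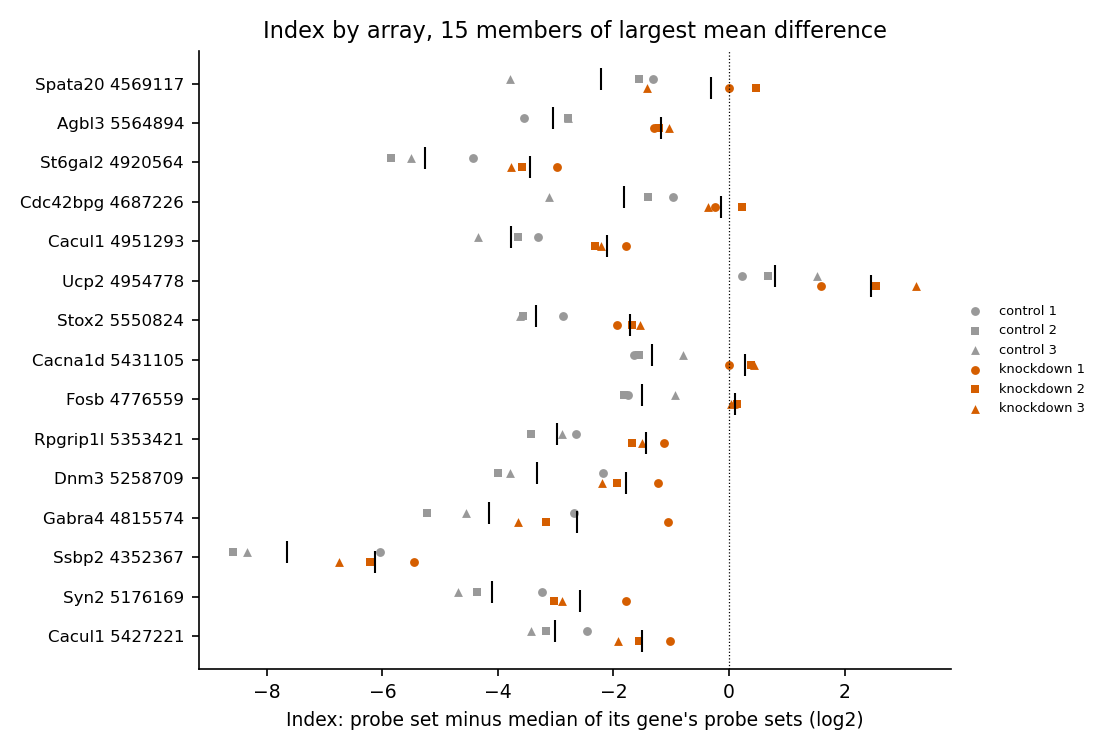
The index (probe set minus gene median, log2) is shown for the 15 members of largest mean difference, with 1 point per array, grey for control and orange for knockdown, a marker shape per replicate number and a bar at each group mean. Ucp2 lies above 0 in all arrays. Cacna1d moves from a control mean of -1.33 to values near 0, and Ssbp2 sits lowest, at -7.66 in control.

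The largest own differences came from 8 genes. After Fosb they were probe set 4865422 of Tmco4 (1.98), 4694430 of Aox1 (1.88), 4687226 of Cdc42bpg (1.84), the Cacna1d member (1.74) and the Spata20 member (1.64). Next came Cdc42bpg 5534142 (1.63), the Fos member (1.62), Cdc42bpg 5205154 (1.60) and probe set 5510450 of Fgf5 (1.58). None of these 10 overlapped between groups, which is description only. The members of Tmco4, Aox1, Spata20 and Fgf5 had control means of 5.62, 5.03, 4.98 and 5.16. Those of Cdc42bpg 4687226 and 5205154 were 5.61 and 5.32. All of these means lay under the rule's level limit, so these members were eligible only through their knockdown arrays. That favours both a large own difference and groups that do not overlap. Aox1, an aldehyde oxidase, was higher as a gene by 0.82, and its member was 4.48, 5.29 and 5.32 in control and 6.38, 7.49 and 6.88 in knockdown arrays. Fgf5, a growth factor, had a member at 4.89, 4.68 and 5.91 in control and 6.13, 7.16 and 6.94 in knockdown arrays.

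The next 4 members fell outside the naming rule and were picked after their values were seen, as their groups did not overlap. Probe set 4787757 of Smarcd3, which belongs to the SWI/SNF chromatin remodelling complex, was 10.70, 10.56 and 10.74 in control and 11.64, 11.42 and 11.62 in knockdown arrays. It was 0.89 ± 0.05 (SD, n = 3 pairs) higher, while the gene median was lower by 0.34. It is 1 of the 4 members that were above their gene median in control and at least 0.5 higher themselves.

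Probe set 5098912 of Fzd6, a Wnt receptor, was 7.56, 7.09 and 7.67 in control and 8.72, 8.94 and 8.91 in knockdown arrays. It was 1.42 higher in a gene 0.29 higher. The gene's 2 probe sets that were not eligible had a median difference of 1.92. Probe set 5056081 of Hspa12a, a distant relative of the HSP70 chaperones, was 8.87, 8.58 and 8.86 in control and 9.56, 9.41 and 9.55 in knockdown arrays. It was 0.74 higher in a gene lower by 0.49. Probe set 4965682 of Nr2c2, a nuclear receptor, was dimmer, at 6.80, 6.70 and 6.73 in control and 7.68, 7.33 and 7.39 in knockdown arrays. It was 0.73 higher in a gene lower by 0.37. Of the gene's other 23 eligible probe sets 21 were lower, and the highest, not a member, was 0.99 higher. For all these members, every knockdown array was above every control array.

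Members were shared unevenly among genes. Of the 151 genes, 118 held 1 member and 33 held 2 or more, and those 33 genes held 102 of the 220 members. In 7 genes there were 5 or more, 41 members in all. These were R3hdm1 with 7, Cacul1, Itga6, Mtch2 and Syn2 with 6 each, and Cdc42bpg and Dnm3 with 5 each. Members of 1 gene share that gene's median and are not independent of each other. In 6 of the 7 genes, all but Cdc42bpg, the gene median was lower by 0.54 to 1.22.

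Syn2, synapsin II of the synaptic vesicle surface, had the lowest gene difference of the 7. Its median over 27 probe sets was 11.46, 11.61 and 11.63 in control and 10.28, 10.43 and 10.34 in knockdown arrays. The 6 members differed by -0.17 to 0.31 themselves. The other 21 probe sets were lower without exception, by 0.27 to 1.13. The members therefore kept about their control signal in a gene whose other probe sets were lower.

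One Syn2 member was bright. Probe set 4658394 was 11.75, 11.72 and 11.85 in control and 11.81, 11.74 and 11.78 in knockdown arrays, a difference of 0.00 ± 0.07 (SD, n = 3 pairs) in a gene lower by 1.22. The other 5 members had an index of -4.57 to -2.10 in control. The dim member 5176169 was 8.22, 7.25 and 6.95 in control and 8.49, 7.40 and 7.44 in knockdown arrays, with replicate 1 highest in both groups. The groups overlapped for every Syn2 member.

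Itga6, integrin alpha 6, is a laminin receptor subunit with alternative cytoplasmic tails, and it was on the list of transcripts reported as CELF1-regulated. Its gene median was 9.52, 10.37 and 9.70 in control and 8.59, 8.98 and 8.80 in knockdown arrays. The 30 probe sets that were not members differed by -1.43 to -0.06. Member 5463031 was 10.79, 11.06 and 11.07 in control and 10.99, 10.96 and 11.24 in knockdown arrays, and member 5510623 was 9.35, 9.32 and 9.47 in control and 9.77, 9.71 and 9.67 in knockdown arrays. The first overlapped between groups and the second did not. Member 5250863, at 7.99, 8.54 and 9.55 in control and 8.25, 8.89 and 9.45 in knockdown arrays, varied more between replicate numbers than between groups. The other 3 had means under the receptor-gene level and differed by 0.00 to 0.19.

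Dnm3, a dynamin that cuts endocytic vesicles free, had a gene median lower by 0.88. Its 5 members were 0.31 to 0.66 higher, and 33 of the other 34 probe sets were lower. Member 5258709 was 8.67, 7.17 and 7.01 in control and 8.82, 8.18 and 7.84 in knockdown arrays, which overlapped because control replicate 1 was high. Member 4786703 was 8.59, 8.41 and 8.30 in control and 8.76, 8.79 and 8.68 in knockdown arrays, which did not overlap.

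R3hdm1, which encodes a protein with an R3H domain, a fold that binds single-stranded nucleic acids, held the most members. Its gene median was 11.44, 11.33 and 11.23 in control and 10.98, 10.75 and 10.66 in knockdown arrays, lower by 0.54. Its 7 members were 0.49 to 0.72 higher, and 6 of them had the probe set higher and the gene lower by 0.5 or more. Member 4769838 was 8.95, 7.61 and 7.53 in control and 9.44, 8.58 and 8.23 in knockdown arrays. Member 4649648 was 7.80, 5.95 and 6.31 in control and 8.36, 6.79 and 6.67 in knockdown arrays. In both, replicate 1 was well above the other replicates of its group, and the groups overlapped. Another 5 eligible probe sets with a control index under -2 that were not members had a median own difference of 0.40.

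Mtch2, an outer mitochondrial membrane protein that inserts other proteins, was lower as a gene by 0.80. Its 6 members were 0.24 to 0.67 higher. The brightest, 5274678, was 9.33, 8.14 and 7.76 in control and 9.24, 8.58 and 8.37 in knockdown arrays, with replicate 1 again the highest of each group. No Mtch2 member had groups that stood apart.

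Cacul1, a cell cycle protein, was lower as a gene by 0.91. Its 6 members were 0.15 to 0.76 higher, and the other 24 probe sets were all lower, by 0.07 to 1.28. Member 4951293, with an index difference of 1.66, was 6.43, 6.11 and 5.27 in control and 6.92, 6.61 and 6.54 in knockdown arrays. Member 4319003 was 6.54, 6.49 and 6.49 in control and 7.14, 6.69 and 6.79 in knockdown arrays. Both were without overlap, and the other 4 overlapped.

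**Figure D4:**
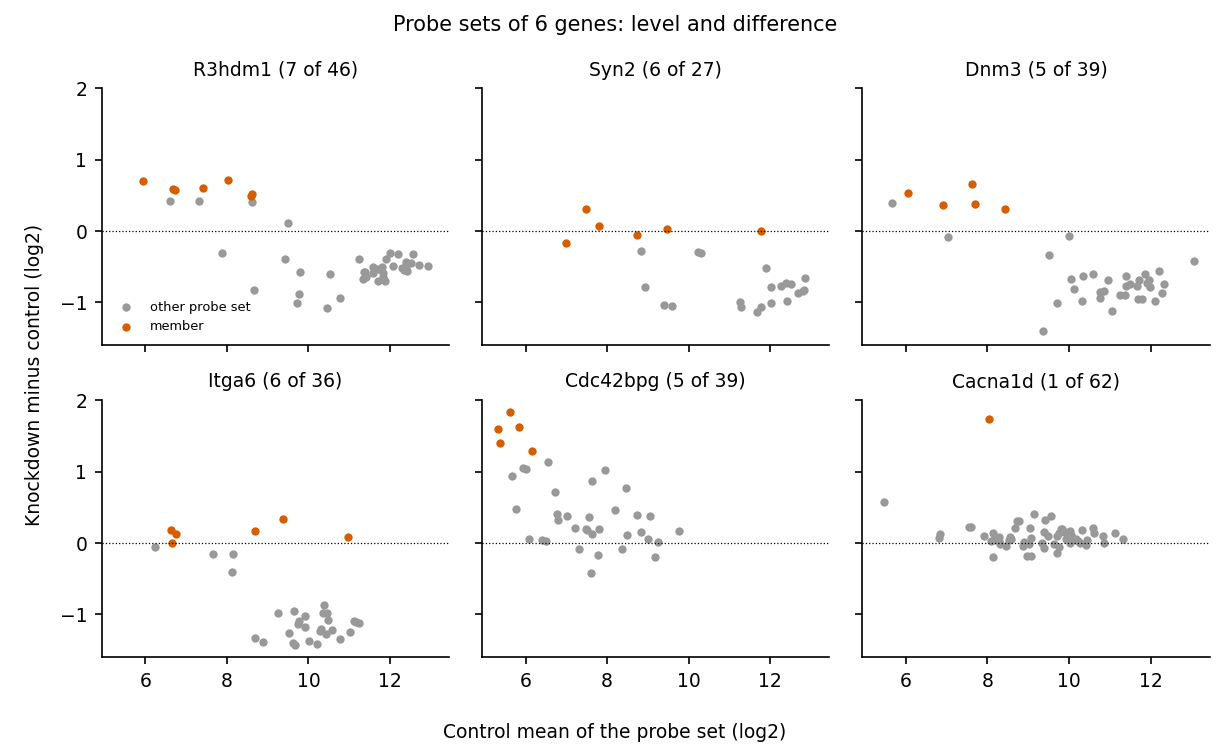
Each panel is 1 gene and each point 1 eligible probe set, with its mean control level (log2) on the horizontal axis and its knockdown minus control difference (log2) on the vertical axis, and members in orange. In R3hdm1, Syn2, Dnm3 and Itga6 the members lie near or above 0 while most brighter probe sets lie below. In Cdc42bpg the members are the highest and among the dimmest, and in Cacna1d the single member at 1.74 stands apart from 61 others.

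Across the probe sets of each of these genes the dimmer ones tended to differ more upward. Pearson's r between the control level and the difference was -0.72 over 46 probe sets of R3hdm1, -0.75 over 39 of Dnm3 and -0.62 over 27 of Syn2. It was -0.66 over 36 of Itga6, -0.62 over 39 of Cdc42bpg and -0.22 over 62 of Cacna1d. These values are across probe sets of the same 6 arrays, the control signal enters both quantities, and they are given as a description with no test.

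Of the genes with 3 members, Gabrg3, a GABA-A receptor subunit, was lower by 1.30 as a gene while its members differed by -0.08 to 0.05. Member 5444135 was 8.16, 8.10 and 8.22 in control and 8.02, 8.11 and 8.09 in knockdown arrays. The other 17 Gabrg3 probe sets were lower by 0.30 to 1.58. Dach2, a transcription cofactor lower by 1.26, had members at -0.11 to 0.19, and Diablo, a mitochondrial antagonist of apoptosis inhibitors lower by 1.11, had members at 0.13 to 0.39.

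Tmod2, a tropomodulin that caps actin filaments in neurons, was lower by 0.99 and had members 0.13 to 0.43 higher that lay over 5 below the gene median in control. Its member 4416135 was 7.90, 6.82 and 5.98 in control and 7.71, 7.32 and 6.96 in knockdown arrays, which overlapped. Ehbp1, Nkain2 and Plxdc1 also held 3 members each, besides Agbl3 and Ucp2.

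The genes with 2 members were Echs1, Garnl3, H2-K1, Hcn3, Hipk2, Il17rc, Napb, Pvt1, Rap2c, Raph1, Snap91, Sort1, St3gal1, Strbp, Vstm5, Wipf3 and Xpr1. Rap2c, a Ras-family GTPase, was the extreme case of a member that was lower itself. Its gene median was 9.05, 9.44 and 8.85 in control and 7.14, 7.47 and 7.42 in knockdown arrays, lower by 1.76. Member 4329197 was 7.70, 7.73 and 8.17 in control and 6.84, 7.54 and 7.51 in knockdown arrays, and member 4934914 was lower by 0.59. Both were thus gained only relative to a gene that was lower still.

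Napb, the beta form of the SNAP protein that helps take apart vesicle fusion complexes, was lower by 0.76 with members 0.50 and 0.59 higher. Member 4995987 was 6.51, 6.74 and 6.87 in control and 7.43, 7.08 and 7.38 in knockdown arrays, without overlap. Il17rc, an interleukin-17 receptor subunit, was 0.31 higher as a gene, and its members were 1.45 and 1.48 higher. Its member 4689974 was 6.07, 6.70 and 6.57 in control and 7.24, 8.28 and 8.25 in knockdown arrays, without overlap.

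The members of H2-K1, a class I histocompatibility gene, were bright at 10.48, 10.12 and 10.24 in control and 10.28, 10.25 and 10.00 in knockdown arrays for probe set 4481024, in a gene lower by 1.15. H2-K1, H2-Ab1, Gbp3 and Psg16 belong to families of near-identical copies, so signal from relatives cannot be told apart and their values are uncertain.

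By function, the members included 11 of 1991 eligible probe sets of 73 synapse genes (0.552%), where members were 0.0928% of all eligible probe sets. They lay in 5 genes, and 6 of the 11 were those of Syn2. The median index difference over all 1991 was 0.02, against 0.0050 over all eligible probe sets, and subtracting each gene's median holds such a value near 0 for any list. Among them was Gabra4, a GABA-A receptor subunit lower by 0.75, whose member 4815574 was 7.65, 5.87 and 5.98 in control and 8.43, 7.04 and 6.39 in knockdown arrays. Pclo, the active zone scaffold piccolo, was lower by 0.93, and its member 4659133 was 7.71, 7.86 and 7.78 in control and 8.13, 7.81 and 7.68 in knockdown arrays. Both members overlapped between groups. Snap91, a clathrin adaptor of synaptic vesicles, was lower by 0.54, with members 0.49 and 0.60 higher.

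Camk2d, a calcium/calmodulin-dependent kinase subunit with known alternative exons, had a dim member higher in every knockdown array. Member 4707193 was 5.92, 6.05 and 5.72 in control and 6.57, 6.39 and 6.53 in knockdown arrays, in a gene lower by 0.48. Its index in control arrays was -4.97.

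The membrane traffic list had 6 members of 2220 probe sets (0.270%), namely the 5 of Dnm3 and 1 of Synj2, a phosphoinositide phosphatase. Synj2 member 5515905 was 0.40 higher in a gene lower by 0.71. The ion channel list had 4 of 1882 (0.213%), in Cacna1d, Hcn3 and Kcnma1. Hcn3, a hyperpolarization-activated channel, was lower by 1.09 with members that differed by -0.00 and 0.05. Kcnma1, the BK potassium channel, was level as a gene at -0.06. Its dim member 4445981 was 6.60, 5.29 and 5.52 in control and 7.27, 6.29 and 6.80 in knockdown arrays, which overlapped.

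The adhesion and guidance list had 3 members of 2244 probe sets (0.134%). Robo2, a receptor for Slit proteins, had member 4886758 at 8.21, 6.21 and 7.84 in control and 8.64, 8.23 and 8.29 in knockdown arrays. Control replicate 2 was far below the other arrays there, and knockdown replicates 2 and 3 exceeded the highest control by less than 0.1. Sema6a, a transmembrane semaphorin, had member 4335908 at 6.74, 4.41 and 5.13 in control and 7.86, 6.31 and 5.91 in knockdown arrays, with overlap. Nrp1, a semaphorin co-receptor, had member 4662584 with an own difference of 0.64, also with overlap.

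The list of known neuronal alternative exons had 4 members of 3041 probe sets (0.132%) in 80 genes, in Cacna1d, Camk2d, Kcnma1 and Robo2. The list names genes and not exons, so these members need not be the known exons. The cytoskeleton list had 1 of 2577 (0.0388%), in the spectrin-binding adducin Add2. The transcription and chromatin list had 1 of 2883 (0.0347%), in Kmt2e, a SET domain protein. None of 1093 probe sets of 50 splicing regulators was a member. At the overall share of 0.0928% few would be expected in a list of that size. Of 757 probe sets in 29 transcripts reported as CELF1-regulated, the 6 members (0.793%) were those of Itga6.

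In 5 genes a gained and a lost probe set occurred together. Asph, an aspartate hydroxylase locus that also encodes the calcium store protein junctin, had 1 gained and 2 lost. Its member 4331153 was 4.70, 6.11 and 5.74 in control and 6.60, 7.65 and 6.77 in knockdown arrays, without overlap, in a gene 0.29 higher. Nalcn, a sodium leak channel, had member 4855156 at 6.74, 5.84 and 6.55 in control and 7.56, 6.65 and 7.00 in knockdown arrays, with overlap.

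Strbp, an RNA-binding protein, had 2 members that were 0.18 and 0.32 higher in a gene lower by 1.04. Car12, a carbonic anhydrase, and Neb, the giant muscle protein nebulin, each had a member under the receptor-gene level, with own differences of 0.31 and 0.26. The groups overlapped for the members of Strbp, Car12 and Neb.

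The limit of the rule cut through a continuous range. Just inside it were probe set 5451350 of Raph1 at a mean index difference of 1.01, and members of Add2 (1.01), Mtmr3 (1.00), Gamt (1.00) and 4933412E12Rik (1.00). Just outside were probe sets of Mtch2 (0.999), Macf1 (0.999), Synj2 (0.998), Foxq1 (0.997) and Plaat3 (0.997). Another 802 probe sets passed the limit in all 3 pairs with a mean under 1, and 50 had a mean of at least 1 with a pair under 0.5.

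To look at a pair whose index difference had no part in the choice, the limits were applied to 2 of the 3 pairs and the index difference was read in the pair left out. The level filter still used the mean over all 6 arrays, so the arrays left out entered through it. Leaving out pair 1, 525 probe sets were chosen, and 47.8% of them were at least 0.5 in pair 1, against 5.29% of all eligible probe sets. Leaving out pair 2, 319 were chosen and 63.3% reached 0.5, against 5.24%. Leaving out pair 3, 379 were chosen and 64.4% reached 0.5, against 5.84%. The held-out difference was above 0 in 81.3%, 83.1% and 87.9%, where all eligible probe sets gave 51.2%, 51.2% and 49.2%.

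The index difference was smaller in the pair held out. The median over the chosen probe sets was 1.17, 1.13 and 1.15 in the pairs used and 0.47, 0.83 and 0.66 in the pair held out. Pooled over the 3 choices, 697 of 1223 (57.0%) reached 0.5. The 3 choices overlap in their probe sets and share arrays, so no test was made.

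**Figure D5:**
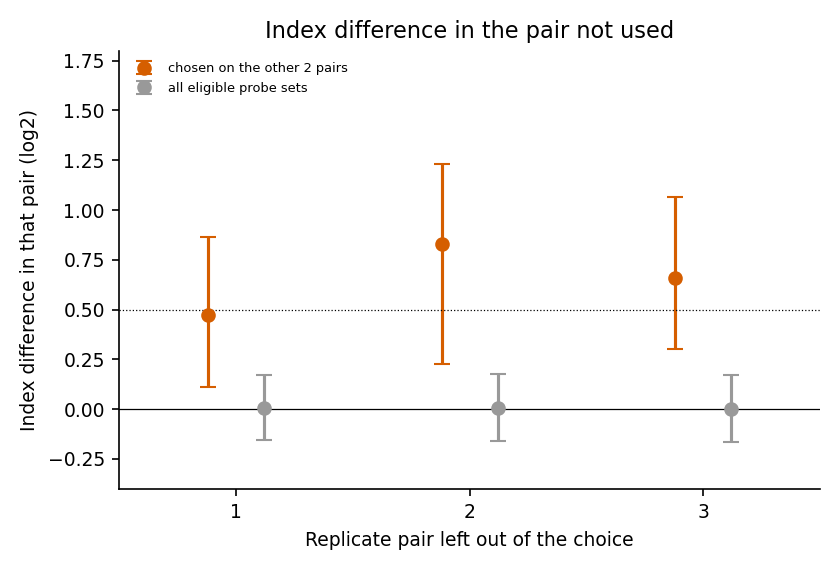
For each pair left out of the choice, the point is the median index difference in that pair (knockdown minus control, log2) and the bar spans the quartiles, for probe sets chosen on the other 2 pairs (orange) and for all eligible probe sets (grey). The chosen sets have medians of 0.47, 0.83 and 0.66, and the grey medians lie near 0.

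The share in the held-out pair differed by class, a split made after seeing the data and defined on the pairs used for the choice. Probe sets chosen with only the gene lower reached 0.5 in 73.0%, 88.2% and 75.7% for pairs 1, 2 and 3. Those with both did so in 61.7%, 75% and 68.3%, and those with only the probe set higher in 30.8%, 42.1% and 49.7%. The median own difference in the pair held out was 0.01, 0.08 and 0.03 for the class with only the gene lower. It was 0.14, 0.31 and 0.19 for the class with both, and 0.16, 0.29 and 0.37 for the class with only the probe set higher. The difference between classes was not tested. At or above the receptor-gene level 60.2%, 86.6% and 74.0% reached 0.5, and under it 36.5%, 47.9% and 55.9% did.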

How the data were processed

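The deposited values were log2 expression values of exon probe sets from 6 arrays, made by the authors with RMA in Affymetrix Expression Console (all-exon analysis), per the labels; the submitters' processing notes name mm9. RMA corrects background, equalises the arrays' distributions and summarises probes, and its version is not given in the sources used here. Precision is limited by the number of arrays, 3 per group. Gene symbols came from the platform annotation (22287 symbols, of which 17995 were current in RefSeq, 4229 were updated by synonym and 63 were kept).

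Replicates 2 and 3 carry numbers in their titles, which leaves the unnumbered array of each group as replicate 1. Across genes, deviations from the group means correlated at 0.73, 0.47 and 0.65 between same-numbered arrays and at -0.63 to 0.08 between others. Same-numbered arrays were therefore taken as pairs, which the labels do not state. Deviations cancel out within each group, so the low values between others follow in part from the same-numbered ones. Members and lists were chosen with earlier results of these data known. Named are the 15 members of largest index difference, the 10 of largest own difference, members of genes with 2 or more, of listed genes and of genes with a lost probe set, and those next to the limit. Exon usage over all eligible probe sets was tested two-sided with limma 3.58.1 (diffSplice, Benjamini-Hochberg) in R 4.3.3, with data.table (version 1.17.8). Values were computed in Python 3.11.15 with pandas 2.3.3 and numpy 2.4.6, and plots were drawn with matplotlib 3.10.9. The rule and the test were tested on simulated data. Alternatives covered the gene reference, the level filter, probe sets per gene, normalization, the limits, the replicate block and leaving out arrays.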

Additional observations from a re-analysis of the deposited data

How the results depend on the processing

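The number of members (220) depended on the gene reference and the level filter. It was 101 with the gene mean (88 of the 220 among them), 145 with median polish (121 shared), 467 with no level filter (158 shared), 81 with a filter at the 75th percentile (59 shared), 119 above the receptor-gene level and 17 with a mean limit of 1.5, where the median index difference was 1.60. It lay between 319 and 525 when 1 replicate pair was left out, since fewer pairs had to pass. The count of members at least 0.5 higher themselves (100) was 56 with the gene mean, 286 with no filter, 25 with the filter at the 75th percentile, 40 above the receptor-gene level, 12 with the mean limit of 1.5, and 192 to 373 without 1 pair. The held-out share (57.0%) was 77.4% with the filter at the 75th percentile and 70.6% above the receptor-gene level. Exon usage calls in diffSplice (110 higher) were 2980 with the replicate block and 22 to 714 without 1 array. They were 0 with limma on the index, a setting separate from the block (5646 at an unadjusted p under 0.05). Beyond those effects of the settings' own construction, the cause was not tested. The median of the other probe sets as reference (267 members, 198 shared), 3 or 10 probe sets per gene (222 and 200), quantile normalization (218), median centring (220), groups that stand apart in place of the pair limit (176) and no pair limit (270) left the counts within 1.5 times. Signal over background limits the reading of the 101 members under the receptor-gene level.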
